A study of Mus musculus with 6 samples.

Results

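The CCN family genes are Cyr61, Ctgf, Nov, Wisp1 and Wisp2, now named Ccn1 to Ccn5, and they were picked by either symbol from a table of 22483 mouse genes. All 5 were listed, and all 5 passed the filter on low values, Wisp2 only through its injured libraries. They were followed in 6 sequencing libraries, 1 library for each of 3 sorted stromal cell populations of skeletal muscle in each of 2 states. The mice were Swiss white, 8 to 12 weeks old and with no genetic change given. The injured muscles had received 20 uM cardiotoxin, a myotoxin from snake venom, and were taken on day 3, while the untreated muscles of the opposite leg were the controls. The labels give tibialis anterior as the muscle, whereas the study's text names gastrocnemius and soleus for acute injury. Acute injury used 5 mice, and how many mice went into each library is not given in the sources used here. Mononuclear cells were kept at body temperature for 8 h and then sorted. Cells with CD45, CD31 or CD11b, the marks of leukocytes, endothelial cells and myeloid cells, were gated out. The remaining cells were sorted on CD140a, the PDGF receptor alpha encoded by Pdgfra, and on Sca1, encoded by Ly6a. This gave cells labelled CD140a(-)/Sca1(+), cells labelled CD140a(+)/Sca1(-) and double positive cells labelled CD140a(+)/Sca1(+). Where 3 values are given in label order, they follow this order.

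CCN proteins are secreted matricellular proteins, meaning that they sit in the extracellular matrix and signal to cells rather than build the matrix. They are made of modules that bind insulin-like growth factors, TGF-beta family ligands, heparan sulfate and integrins, and Ccn5 lacks the C-terminal cystine knot module that the others carry. Cyr61 and Ctgf are standard targets of the Hippo pathway effectors YAP and TAZ and of TGF-beta, Wisp1 and Wisp2 were first described as genes induced by Wnt signaling, and Ctgf is known as a mediator of fibrosis. Fibro-adipogenic progenitors, the main CD140a(+)/Sca1(+) cells of muscle, make matrix after injury.

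The genes lie on 4 chromosomes in GRCm38 (GENCODE M21). Their identifiers in the table are ENSMUSG00000028195 for Cyr61, ENSMUSG00000019997 for Ctgf, ENSMUSG00000037362 for Nov, ENSMUSG00000005124 for Wisp1 and ENSMUSG00000027656 for Wisp2. Cyr61 is at chr3:145646976-145649981 on the minus strand, with 379 codons over 5 exons. The other 4 genes are on plus strands, Ctgf at chr10:24595442-24598683, Nov at chr15:54745702-54754039, Wisp1 at chr15:66891320-66923201 and Wisp2 at chr2:163820861-163833146. Wisp2 has the shortest reading frame, 251 codons against 348 to 379 in the others. The antisense gene Gm15270 overlaps Ctgf on the opposite strand, and the strand setting of the counting is not given in the sources used here, so the Ctgf values are uncertain to that extent.

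The promoter of Cyr61 is shown because Cyr61 is the textbook readout of the TEAD factors through which YAP and TAZ act, whose other targets are described further on. The sequence is from RefSeq (GRCm38.p6), the 250 bases before the start, chr3:145649986-145650235, printed 5′ to 3′ along the minus strand. Capitals mark a TEAD core, searched as GGAATG on both strands and present here as CATTCC, and a TATA box, searched as TATAAA on both strands.

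Cyr61: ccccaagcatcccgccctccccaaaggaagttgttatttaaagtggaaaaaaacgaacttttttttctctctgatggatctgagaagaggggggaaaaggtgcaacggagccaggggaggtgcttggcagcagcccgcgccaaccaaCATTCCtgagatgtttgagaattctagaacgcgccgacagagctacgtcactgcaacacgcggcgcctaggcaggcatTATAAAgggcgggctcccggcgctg

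The TEAD core lay 103 to 98 bases before the start and the TATA box 25 to 20 bases before it. Of 32851 promoter windows of this length, 12.6% held the TEAD core and 12.4% the TATA box. The AP-1 letters TGACTCA or TGAGTCA had 0 matches in this window and were in 4.46% of all windows, and the CArG box had 0 matches and was in 1.47%. These matches describe letters only. Of the 5 genes, 1 was in the promoter table.

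Some libraries stood apart from the others or went against their labels. The estimated depth ran from 2094353 reads in injured CD140a(+)/Sca1(-) to 14173590 reads in injured CD140a(-)/Sca1(+), a ratio of 6.77. Injured CD140a(+)/Sca1(-) had 69.1% of all genes without a read, against 28.2% to 39.0% in the others. Control CD140a(+)/Sca1(+), with 2346691 reads, had 33.4% of genes without a read. The part of depth in these shares was not tested. Of 5274 genes that stood at 20 normalized counts or above in all the other 5 libraries, 928 were listed at 0 in injured CD140a(+)/Sca1(-), while for every other library the like number was 2 or fewer. Ly6a was lowest in CD140a(+)/Sca1(-) in both states, as its label says, with 70.4 normalized counts in control and 2.09 in injured cells, against 253 to 5850 elsewhere. Pdgfra went against the labels. In label order it was at 211, 33.6 and 26.3 normalized counts in control and at 335, 203 and 1240 after injury, so the library labelled CD140a(-)/Sca1(+) was the highest of the controls and was also above CD140a(+)/Sca1(-) after injury. The population names below are therefore the names of the labels. Normalized counts are read counts divided by the size factor of the library, and they were recovered from the deposited variance-stabilized log2 values. Log2 differences are those of the deposited values. There, genes without a read share the lowest value (2.57) and low counts are drawn together. A gene at that value is called listed at 0.

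Wisp1 was the CCN gene that rose after injury, and its level was higher in each of the 3 populations. Its protein (Ccn4) is a matrix signal of bone and connective tissue that acts on integrins and mesenchymal growth. In the control libraries it was at 16.6, 20.5 and 8.05 normalized counts in label order. In the injured libraries it was at 309, 444 and 250 normalized counts. Every injured library was above every control library, and the gap between the groups was wider than the spread within either. The control mean was 15.0 ± 6.37 and the injured mean 334 ± 99.3 normalized counts (SD over the 3 populations in each state). The number of reads behind these values was about 88, 32 and 9 in control and 2113, 452 and 472 after injury. In such sorted bulk samples, fewer cells of a type and less RNA per cell cannot be told apart.

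**Figure D1:**
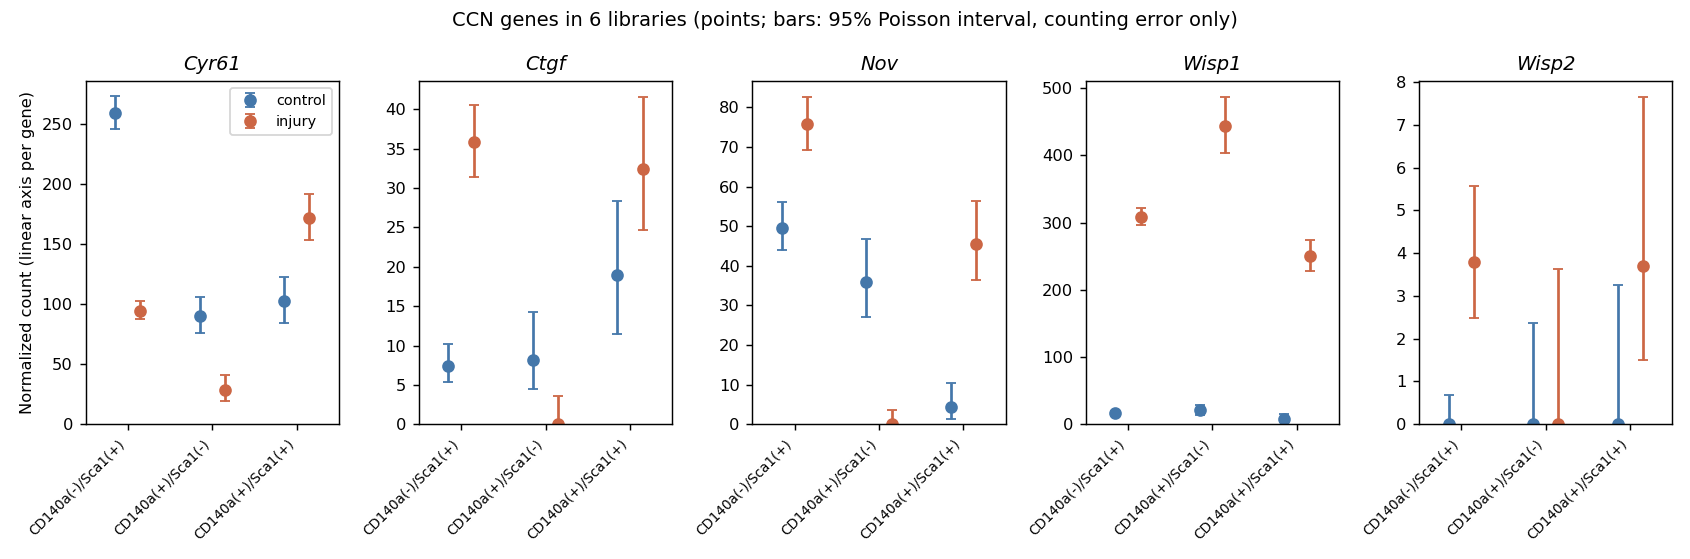
Normalized counts (vertical axis, linear from 0, own scale per gene) of the 5 CCN genes in the 3 populations, control in blue and injured in orange, 1 library per point, with exact Poisson 95% intervals that cover counting error only. Wisp1 is at 250 to 444 in the injured libraries and at 8.05 to 20.5 in the controls, while Cyr61, Ctgf and Nov go in different directions by population.

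Within the populations, Wisp1 was 18.6-fold higher after injury in CD140a(-)/Sca1(+) (95% interval from counting error 15.1 to 23.4). The fold was 21.6 for CD140a(+)/Sca1(-) (15.1 to 31.9) and 31.1 for CD140a(+)/Sca1(+) cells (16.4 to 69.3). The intervals overlap, so the order of the 3 folds was not resolved at this depth. Over the 3 populations the log2 change was 3.76 (SE 0.48, 95% interval 2.60 to 4.93), with adjusted p = 0.206 in limma. A gene was called changed at an unadjusted p under 0.05 and at least 3-fold, and Wisp1 passed it. By this rule 357 of 15532 genes rose, 2.3% of those tested, and 537 fell, 3.46%, together 5.76%. At a stricter unadjusted p under 0.01, a cut-off that the study's text also names, 144 were called higher and 183 lower, Wisp1 among the former. With upper quartile scaling 174 rose and 989 fell, and with quantile normalization 459 rose and 440 fell. In limma 0 genes had an adjusted p under 0.05, the lowest was 0.192, and 1241 genes had an unadjusted p under 0.05. The number with an adjusted p under 0.05 was 95 with a variance prior that followed the mean, 15 with the filter on normalized counts and 10 with quantile normalization. No count model was run, because only part of the low values came out as whole reads.

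Among all 15532 genes 12 had a larger log2 increase than Wisp1, while the median log2 change of all genes was -0.33. All injured libraries were above all control libraries in 649 genes, 4.18% of those tested. A rise of at least 3-fold on the deposited scale in each of the 3 populations was found in 94 genes, 0.605%. The smallest of the 3 log2 differences of Wisp1 was 3.56, and 5 genes, Wisp1 included, reached at least that in every population. The rise passed the call rule in all 12 alternative fits, at log2 changes of 3.26 to 4.43. Its adjusted p ran from 0.00776, with a variance prior that followed the mean, to 0.836, without the CD140a(-)/Sca1(+) pair. Without the CD140a(+)/Sca1(-) pair, the one with the library that stood apart, the log2 change was 3.71 and the adjusted p = 0.0196 in limma.

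**Figure D2:**
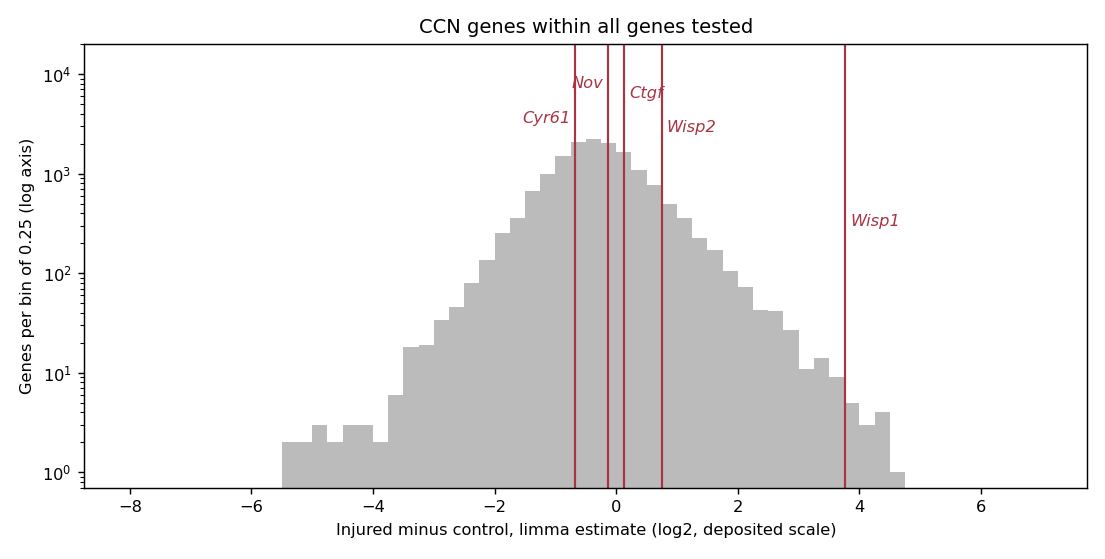
Number of genes (vertical axis, log scale) by log2 change after injury in bins of 0.25 (horizontal axis, limma estimate on the deposited scale) for the 15532 genes tested, with red lines at the 5 CCN genes. Wisp1, at 3.76, lies in the far upper tail, and the other 4, at -0.68 to 0.75, lie in the body of the distribution.

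Cyr61 did not pass the call rule for injury. Its protein (Ccn1) is an immediate early product that binds integrins and, in wound healing, is known to drive fibroblast senescence. In control it was at 259, 89.9 and 102 normalized counts in label order. After injury it was at 94.6, 28.5 and 172 normalized counts. The highest control library was above every injured library, but the groups overlapped, since injured CD140a(+)/Sca1(+) was above both other controls. The log2 change over the populations was -0.68 (SE 0.61, 95% interval -2.17 to 0.82), with adjusted p = 0.724 in limma.

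By population, Cyr61 was lower after injury in both single positive populations. Its level was 2.74-fold lower in CD140a(-)/Sca1(+) (95% interval 2.49 to 3.01) and 3.16-fold lower in CD140a(+)/Sca1(-) (2.11 to 4.89). In CD140a(+)/Sca1(+) it was 1.68-fold higher (1.35 to 2.09). Each interval leaves out a ratio of 1, but it covers counting error between 2 libraries and not the spread between animals. In the same pairs 61.3%, 65.0% and 44.5% of all genes tested were lower after injury, in label order.

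Ctgf did not pass the call rule either. Its protein (Ccn2) is the fibrosis-associated member and binds TGF-beta and integrins. In control it was at 7.45, 8.19 and 18.9 normalized counts in label order. After injury it was at 35.9 normalized counts in CD140a(-)/Sca1(+), was listed at 0 in CD140a(+)/Sca1(-) and reached 32.4 in CD140a(+)/Sca1(+) cells. The injured libraries lay on both sides of all controls. The log2 change was 0.13 (SE 0.70, 95% interval -1.58 to 1.84), with adjusted p = 0.960 in limma. Within CD140a(-)/Sca1(+) it was 4.81-fold higher after injury (95% interval 3.41 to 6.85) and within CD140a(+)/Sca1(+) 1.71-fold higher (1.05 to 3.01).

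The Ctgf value of injured CD140a(+)/Sca1(-) comes from the library that stood apart. A count of 0 there allows up to 3 reads, or 2.94 normalized counts. The control value of Ctgf stood 2.78-fold above that limit, with the counting error of the control reads left out. Of 2093 genes with a mean in the other 5 libraries within 1.5-fold of that of Ctgf, 61.1% were also listed at 0 in this library. Without this pair the log2 change of Ctgf was 0.998 and still did not pass the rule.

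Nov did not pass the call rule, and among the 4 CCN genes with reads in all controls it had the widest range there, 11.3-fold between populations. Its protein (Ccn3) often acts against Ctgf and restrains matrix production in culture. In control it was at 49.7, 36.0 and 4.41 normalized counts in label order. After injury it was at 75.7 in CD140a(-)/Sca1(+), was listed at 0 in CD140a(+)/Sca1(-) and reached 45.6 in CD140a(+)/Sca1(+) cells. Control CD140a(+)/Sca1(+) was the lowest control, from 5 reads, and the injured libraries overlapped the controls. The log2 change was -0.14 (SE 0.98, 95% interval -2.52 to 2.24), with adjusted p = 0.971 in limma.

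In CD140a(+)/Sca1(+) Nov was 10.3-fold higher after injury (95% interval 4.26 to 32.6) and in CD140a(-)/Sca1(+) 1.52-fold higher (1.31 to 1.77). In CD140a(+)/Sca1(-) the control value of Nov stood 12.2-fold above the limit of 3 reads, with the counting error of the control reads left out. Of 2111 genes with a like mean in the other 5 libraries, 44.4% were listed at 0 in injured CD140a(+)/Sca1(-). For the levels of Cyr61 and Wisp1 the same share was 15.4% and 19.2%, and both had reads in that library. Without this pair the log2 change of Nov was 1.28, with adjusted p = 0.605 in limma, and did not pass the rule.

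Wisp2 was near the lower limit of detection. Its protein (Ccn5) is the member without the C-terminal module and is known to restrain fibroblast and smooth muscle growth. It was listed at 0 in all 3 control libraries and in injured CD140a(+)/Sca1(-). In injured CD140a(-)/Sca1(+) it was at 3.80 normalized counts, from 26 reads, and in injured CD140a(+)/Sca1(+) at 3.71, from 7 reads. These values stood 6.76-fold and 1.40-fold above the limit of 3 reads in their control libraries, with the counting error of the injured reads left out. In CD140a(+)/Sca1(+) the 95% intervals from counting error overlapped, at 1.49 to 7.64 after injury and 0 to 3.26 in control. In CD140a(-)/Sca1(+) they did not, at 2.48 to 5.57 and 0 to 0.69. The log2 change was 0.75 (SE 0.52, 95% interval -0.52 to 2.01), with adjusted p = 0.691 in limma, and the estimate depends on the lowest value of the scale. A limit set on normalized counts left Wisp2 untested. Wisp3 (Ccn6), outside the rule for the 5 genes, was at 0.37 normalized counts in the CD140a(-)/Sca1(+) control and 6.18 in that of CD140a(+)/Sca1(+), and was listed at 0 in the other 4 libraries.

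**Figure D3:**
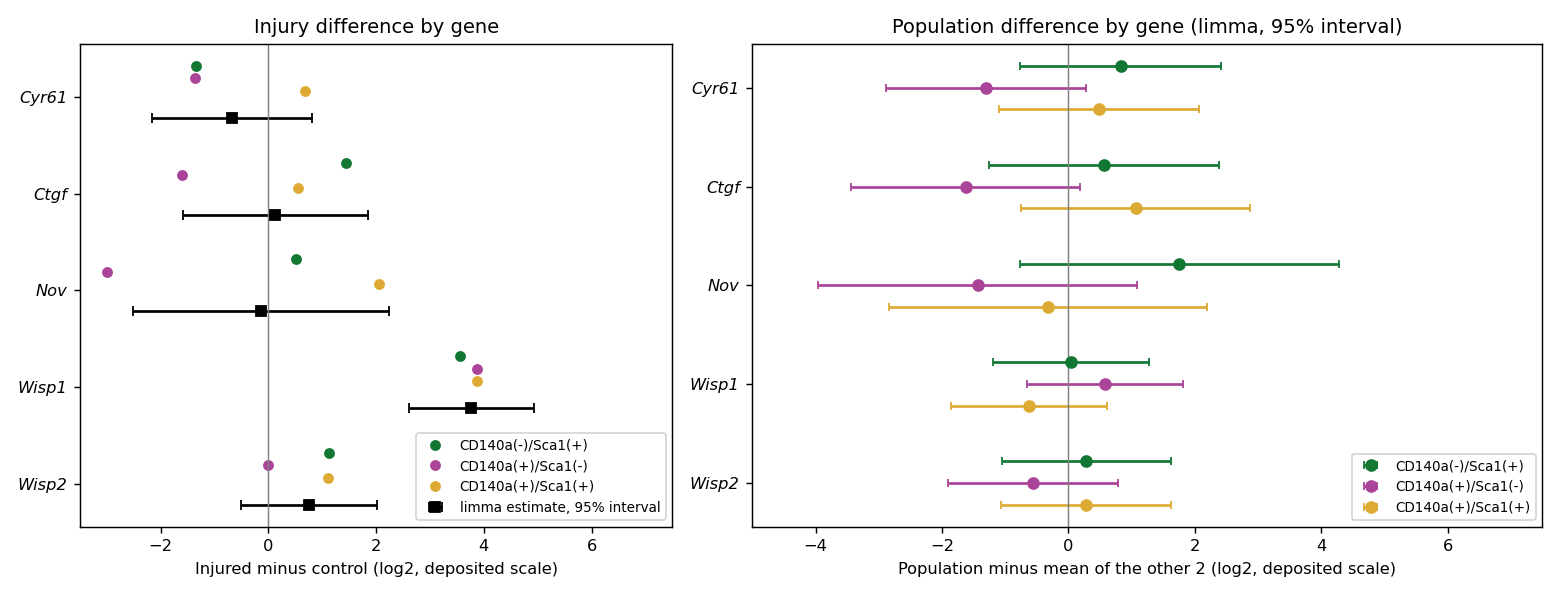
Left, log2 difference of injured minus control for each gene in each population (colored points, 1 library against 1) and the limma estimate with its 95% interval (black squares). Right, limma log2 difference of each population against the mean of the other 2, with its 95% interval. On the left only Wisp1 has an interval away from 0, 2.60 to 4.93, and on the right every interval crosses 0.

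The populations were compared over both states, each against the mean of the other 2, with state as a term. By the call rule 1.61%, 4.38% and 1.79% of all genes differed, in label order. None of the 5 CCN genes was called in any of these limma comparisons, and the lowest adjusted p among them was 0.615, for Ctgf and Cyr61 in CD140a(+)/Sca1(-). The log2 differences in CD140a(+)/Sca1(-) were -1.63 for Ctgf (SE 0.74), -1.31 for Cyr61 (SE 0.65), -1.43 for Nov (SE 1.03) and 0.58 for Wisp1 (SE 0.51), beside a median of -0.46 over all genes. In CD140a(-)/Sca1(+) Nov had the largest, 1.76 (SE 1.03), and in CD140a(+)/Sca1(+) Ctgf, 1.06 (SE 0.74). Most of these differences moved without the injured CD140a(+)/Sca1(-) library, in which Ctgf and Nov were listed at 0. CD140a(+)/Sca1(-) then had only its control library, so its differences were those within control. They were -0.32 for Ctgf, -0.79 for Cyr61, 0.70 for Nov and 0.50 for Wisp1. That of Nov in CD140a(-)/Sca1(+) became 0.69, and in CD140a(+)/Sca1(+) that of Ctgf became 0.41 and that of Nov went from -0.32 to -1.39. None of the 5 genes was called in these limma comparisons either. The intervals are wide, and a difference of 3-fold lies within most of them.

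Within a state, counting error alone separated some neighbors in the order of levels. In control, Cyr61 was 2.53-fold higher in CD140a(-)/Sca1(+) than in CD140a(+)/Sca1(+) (95% interval 2.09 to 3.08), and CD140a(+)/Sca1(+) and CD140a(+)/Sca1(-) did not differ beyond counting error, at a ratio of 1.14 (0.882 to 1.47). After injury the order changed, with CD140a(+)/Sca1(+) 1.82-fold above CD140a(-)/Sca1(+) (1.58 to 2.08). Ctgf in control was 2.31-fold higher in CD140a(+)/Sca1(+) than in CD140a(+)/Sca1(-) (1.06 to 4.83), and after injury its levels in CD140a(-)/Sca1(+) and CD140a(+)/Sca1(+) did not differ beyond counting error, at a ratio of 1.11 (0.834 to 1.49). Nov in control was 8.15-fold higher in CD140a(+)/Sca1(-) than in CD140a(+)/Sca1(+) (3.29 to 26.1). Wisp1 after injury was 1.44-fold higher in CD140a(+)/Sca1(-) than in CD140a(-)/Sca1(+) (1.29 to 1.59), and the latter was 1.24-fold above CD140a(+)/Sca1(+) (1.12 to 1.37). Neither the spread between animals nor the choice of scaling is in these intervals. Injured CD140a(+)/Sca1(-) is the library that stood apart. Over both states, the log2 difference of Wisp1 in CD140a(+)/Sca1(-) was 0.58 and became -0.13 with upper quartile scaling.

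Genes of the pathways around the CCN family were followed in lists. In the main fit their counts stand against 2.3% of all genes tested called higher and 3.46% called lower after injury. Of the 15532 genes, upper quartile scaling called 174 higher and 989 lower, and quantile normalization 459 and 440. Without the CD140a(+)/Sca1(-) pair 456 were higher and 412 lower. The lists were chosen with earlier results of these data known, so the counts describe the listed genes and do not test a pathway. The receptors and binding partners of CCN proteins included 17 tested genes, of which 0 rose and 1 fell. Itga6, the laminin-binding integrin alpha 6 that also binds Cyr61 and Ctgf, fell by 3.07 on the log2 scale. The median of the list was 0.21, against -0.33 over all genes, and was -0.24 with upper quartile scaling. Without the CD140a(+)/Sca1(-) pair 1 rose and 1 fell. Between populations, 2 of the 17 were higher in CD140a(-)/Sca1(+), where 1.33% of all genes tested were, and 3 were lower in CD140a(+)/Sca1(-), where 3.73% of all genes were. Itgb3, the beta chain of the vitronectin receptor, and Lrp1, an endocytic receptor that takes up Ctgf, passed the rule in both comparisons. The third lower gene was Itgb2, the beta chain of leukocyte integrins (-1.86 log2), which was listed at 0 in both CD140a(+)/Sca1(-) libraries. Itgb3 and Lrp1 were near or at 0 in injured CD140a(+)/Sca1(-), Itgb3 listed at 0 and Lrp1 at 1.97 normalized counts.

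Of 23 targets of YAP and TAZ beside the CCN genes, 4 rose and 2 fell, with a median of -0.20, which was 0.18 with quantile normalization. With upper quartile scaling 2 rose and 2 fell. Myof (myoferlin, a membrane repair protein) rose by 2.96, Ccdc80 (a matrix protein) by 2.76, Tgfb2 by 1.88 and Igfbp3 by 1.72 on the log2 scale, while Gadd45a (growth arrest) fell by 2.77 and Ptpn14 (a phosphatase that binds YAP) fell by 2.18. Gadd45a and Ptpn14 were both listed at 0 in injured CD140a(+)/Sca1(-), and without that pair 3 targets rose and 1 fell. Of 18 parts of the Hippo pathway none was called for injury in limma. Yap1 had a log2 change of 0.69 (SE 0.58) and Wwtr1, which encodes TAZ, of -0.30 (SE 0.55). Between populations, 1 of the 18 was called higher in CD140a(+)/Sca1(+), beside 205 of all 15532 genes. None of 17 targets of SRF and its MRTF coactivators was called for injury in limma. Actn1 (alpha-actinin) had a log2 change of 1.30 (SE 0.62) and Tpm1 (tropomyosin) of 0.10 (SE 0.48). Without the CD140a(+)/Sca1(-) pair 3 of the 17 were called higher, and with upper quartile scaling 1 was called lower. Between populations, 2 of the 17 were called higher in CD140a(+)/Sca1(-) and 2 lower in CD140a(-)/Sca1(+), beside 102 and 44 of all 15532 genes. Of 20 immediate early genes, the class to which Cyr61 belongs, 1 rose and 1 fell, and with upper quartile scaling 0 rose and 5 fell. The first were Egr2 (1.80 log2) and Jund, which fell by 2.66 and was listed at 0 in injured CD140a(+)/Sca1(-). Without that pair 3 fell.

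The listed targets of TGF-beta were mostly higher after injury. Of 18 tested, 13 rose and 1 fell, with a median log2 change of 3.01 against -0.33 over all genes. This list too was chosen with earlier results of these data known. The study had already reported collagens and Postn as higher after injury in these libraries. Col3a1, a fibrillar collagen chain, rose by 4.62, Postn (periostin) by 4.45, Tnc (tenascin C) by 4.05 and Inhba, the activin A subunit, by 3.87, and Cdkn1a, a cell cycle inhibitor, fell by 3.15. Without the CD140a(+)/Sca1(-) pair 14 rose and 1 fell. The counts were 13 and 1 under both upper quartile scaling and quantile normalization. Postn and Tnc are also in the list of matricellular genes. Among 18 ligands, receptors, binding proteins and SMADs of TGF-beta, Ltbp2 (2.51) and Ltbp3 (1.69), which hold latent TGF-beta in the matrix, rose and 0 fell, at a list median of 0.01. That median was -0.58 with upper quartile scaling, where 1 rose and 1 fell, and 1 rose without the CD140a(+)/Sca1(-) pair. Between populations, 1 of these 18 was called higher in CD140a(+)/Sca1(+), Tgfbr1, the type I receptor, beside 205 of all 15532 genes. Of the 18 TGF-beta targets, 2 were called lower in CD140a(+)/Sca1(+), 2 higher in CD140a(+)/Sca1(-) and 1 higher in CD140a(-)/Sca1(+). Of all 15532 genes, 73, 102 and 206 were called in the same comparisons and directions, in this order.

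Of 14 other matricellular genes, 6 rose and 0 fell, at a median of 1.66. Besides Postn and Tnc these were Thbs2 (3.53), Spp1 (2.79), Thbs3 (2.15) and Thbs4 (2.13), the thrombospondins and osteopontin. Without the CD140a(+)/Sca1(-) pair 8 rose, and under upper quartile scaling and quantile normalization 5 and 7 rose. Among 14 targets of Wnt signaling, the pathway after which Wisp1 was named, 0 rose and 1 fell, Axin2 (-1.70), at a median of -0.28, which was 0.20 with quantile normalization, where 0 fell, and -0.43 with upper quartile scaling, where 2 fell. Leaving out the CD140a(+)/Sca1(-) pair also gave 2 that fell. Of 20 Wnt ligands and receptors, Wnt5a (2.00) and Wnt11 (1.81), both ligands of the non-canonical branch, rose and Fzd6 (-2.30) fell, while with upper quartile scaling 0 rose and 2 fell, and without that pair 3 rose and 1 fell. Of 18 BMP ligands and SMAD targets, 3 rose, Bmp1 (3.38), Grem1 (2.78) and Bmp2 (2.07), and 2 fell, Id1 (-2.02) and Bmp6 (-1.71). Bmp1 is the procollagen C-proteinase and not a BMP ligand. With upper quartile scaling 2 rose and 2 fell, and without the pair 4 rose and 1 fell. Of 15 regulators of adipogenesis, Igf1 (2.49) and Dlk1 (1.69) rose and Fabp4 (-5.28), a fatty acid carrier, fell.

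**Figure D4:**
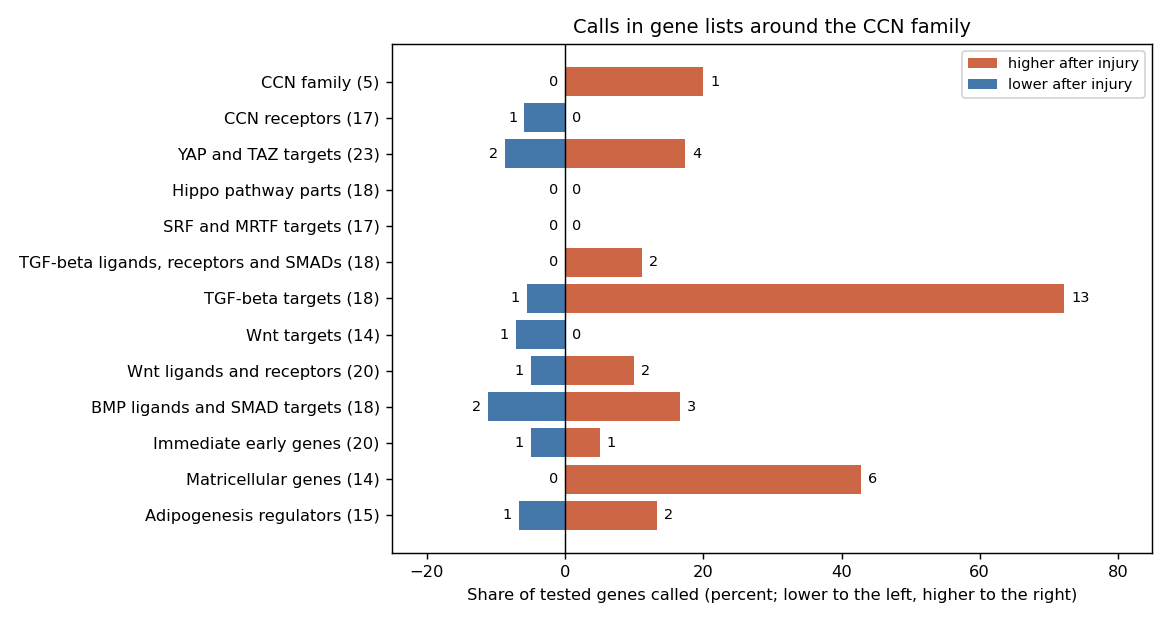
Share of the tested genes of each list that was called after injury (horizontal axis, percent, higher to the right and lower to the left), with the number of called genes at each bar and the number tested in parentheses. TGF-beta targets, with 13 of 18, and matricellular genes, with 6 of 14, have the longest bars to the right, while the Hippo and SRF lists have none.

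Summed endothelial markers were lower in every injured library than in every control library. Schwann cell sums were lower after injury within each population but overlapped between the states, as did leukocyte, pericyte and tenocyte sums. Against these counts stand 2.3% of all genes called higher and 3.46% called lower. The summed level of 13 endothelial markers was 882 to 3547 normalized counts in control and 51.7 to 352 after injury, and 9 of 13 were called lower. That of 8 Schwann cell markers was 62.2 to 2480.5 in control and 2.41 to 64.8 after injury, with 6 of 8 called lower. Leukocyte markers summed to 94.2 to 740 in control and 246 to 889 after injury, with 1 of 12 called in each direction. Pericyte and smooth muscle markers summed to 654 to 1134 and 504 to 1251, with 1 of 12 higher and 4 lower, and tenocyte markers to 124 to 858 and 343 to 1556, with 1 of 7 higher. That tenocyte marker was Thbs4, which is also counted among the matricellular genes. Ptprc, which encodes CD45, was at 20.5 normalized counts in the CD140a(-)/Sca1(+) control and at 2.5 or less elsewhere. Of 6 tested markers of muscle stem cells and myoblasts none was called for injury, and Cdh15 was listed at 0 in all libraries. Markers of fibro-adipogenic progenitors and fibroblasts summed to 2558 to 13482 in control and 18130 to 23051 after injury, with 3 of 13 called higher, among them Pdgfra (2.66 log2). When the CD140a(+)/Sca1(-) pair was left out, 6 of these 13 were called higher. In that fit 9 endothelial, 5 Schwann cell, 3 pericyte and 2 leukocyte markers were called lower, and 1 pericyte, 1 leukocyte and 1 tenocyte marker higher. Over all 15532 genes the same fit called 456 higher and 412 lower. The part of these cell types in the CCN levels was not tested.

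Genes with the pattern most like that of each CCN gene were ranked by Pearson's r over the 6 libraries, over the genes that reached 50 normalized counts in any library. For Wisp1 they were Col5a2, Col8a1, Col1a2, Postn and Sdc1, at r of 0.991 to 0.996. These encode collagen chains, periostin and the proteoglycan syndecan 1. Col1a2 was at 1417, 2620 and 1399 normalized counts in the control libraries and 23272, 26346 and 19199 in the injured ones, in label order. For Cyr61 they were Dusp7, Tor1aip1, Cebpd, Irf1 and Slco3a1 (r of 0.98 to 0.99), for Nov Sema3c, Gpm6b, Ccdc6, Elmod2 and Ppid (0.984 to 0.996), for Ctgf Cgn, Sh3bgrl, Tapbpl, Rcn2 and Prr11 (0.98 to 0.99), and for Wisp2 Zbtb45, Pros1, Hist1h2ae, P3h3 and Mmp19 (0.96 to 0.97). With 6 points that share 2 states and unequal depth such values are easily high, and 153 genes had an r over 0.9 with Wisp1 and 326 with Nov. Injured CD140a(+)/Sca1(-), the library that stood apart, is among these points. Ctgf and Nov were listed at 0 there, as were Sema3c, Gpm6b and Elmod2, while Ppid was at 216 normalized counts. The part of this library in the r values was not tested. Among the CCN genes themselves the highest r was 0.74, between Cyr61 and Nov, and the lowest -0.47, between Cyr61 and Wisp1.

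**Figure D5:**
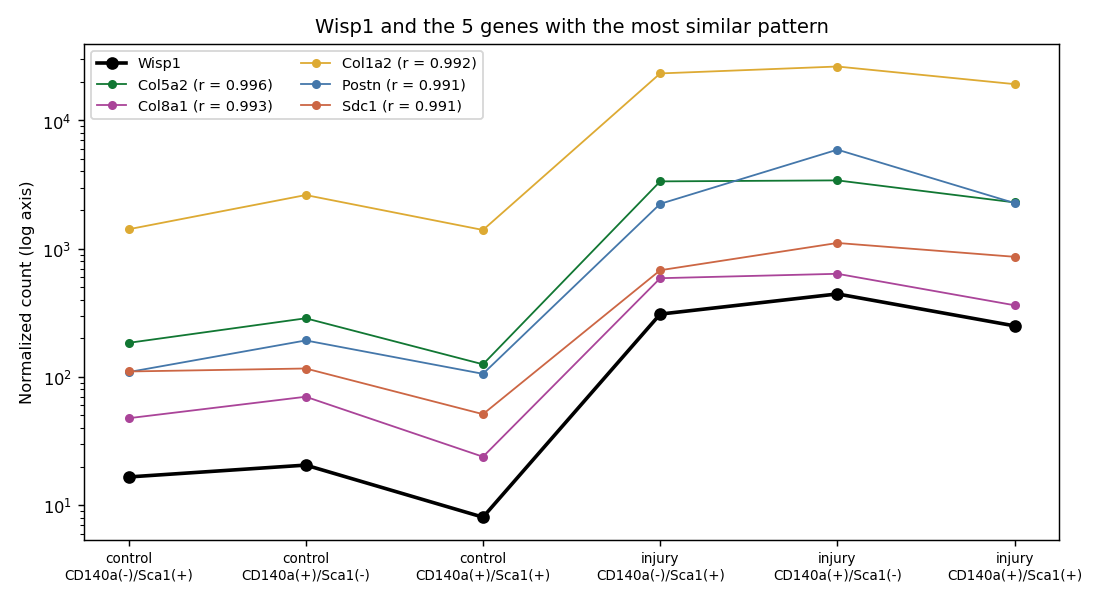
Normalized counts (vertical axis, log scale) of Wisp1, in black, and of the 5 genes with the highest Pearson r with it, over the 6 libraries, controls at the left and injured at the right. All 6 genes are low in the 3 control libraries and high in the 3 injured ones, Wisp1 from 8.05 to 20.5 and then from 250 to 444.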

How the data were processed

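Per the study's methods, the authors trimmed reads with FastX-Toolkit, used STAR and BRB-seqtools for alignment to GRCm38/mm10 (Ensembl annotation) and normalized by DESeq2 size factors. They deposited log2 values after a variance stabilizing transformation. It was inverted exactly to normalized counts, and the inversion was checked on simulated data. The worth of 1 read came from the steps between low values. Between 56.1% and 64.0% of low values per library were whole within 0.02 reads, so no count test was run and intervals (exact Poisson or binomial, 95%) cover counting error only. Each library is 1 sample, and the 3 populations served as replicates, with population as a block. Their p-values measure the spread between populations, not animals.

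The test was limma 3.58.1 in R 4.3.3 on the deposited values, with no variance trend. Genes were kept when the 80th percentile was at least 8 on the linear form of the scale, where a gene without reads stands at 5.93. Benjamini-Hochberg adjustment ran over all 15532 genes. The 5 genes and the 21 gene lists (292 genes) were chosen with earlier results of these data known. Named genes are the CCN genes, the sort genes, up to 4 called genes per list with the largest change (or those with the highest mean) and the 5 genes of the most similar pattern. Tgfb2, Igfbp3, Cdkn1a, Thbs3, Thbs4, Bmp6, Itgb2 and Ptprc were named after their values were seen. Gene names and positions came from GENCODE M21 and RefSeq synonyms. Alternatives for scale, filter, scaling, prior and block were run, and each population was left out in turn.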

Additional observations from a re-analysis of the deposited data

Results flagged for a closer look

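For Cyr61, Ctgf and Nov the single injured and control libraries of the 3 populations differed in opposite directions. With 1 library per population and state the differences between populations were not tested. The log2 difference of Cyr61 was -1.35 in the CD140a(-)/Sca1(+) pair, -1.36 in the CD140a(+)/Sca1(-) pair and 0.69 in the CD140a(+)/Sca1(+) pair. That of Ctgf was 1.44, -1.61 and 0.55 in the same order. That of Nov was 0.52, -2.99 and 2.05. The values of Ctgf and Nov in CD140a(+)/Sca1(-) are from a library with no read of either gene, so their size depends on the lowest value of the scale.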

How the results depend on the processing

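Wisp1 passed the call rule for injury in all 12 alternatives. No other CCN gene passed it in any. Cyr61 kept its negative direction in all of them, and that of Wisp2 is fixed by its controls, all at 0. The signs of Ctgf and Nov turned. Ctgf, at 0.13, was -0.11 with a pseudocount of 1, and ran from -0.53 to 0.998 when a population pair was left out (-0.53 without CD140a(-)/Sca1(+) and -0.084 without CD140a(+)/Sca1(+)). Nov, at -0.14, was 0.063 with a pseudocount of 8 and 0.27 with quantile normalization, and ran from -1.24 to 1.28 when a pair was left out (1.28 without CD140a(+)/Sca1(-)). The median log2 change of all genes, -0.33, was -0.57 with upper quartile scaling and 0.00 with quantile normalization. The 357 higher and 537 lower calls became 181 and 245 with no filter, 174 and 989 with upper quartile scaling, 114 and 180 in the unmoderated test and 144 and 183 at an unadjusted p under 0.01 (chosen after seeing the data), and 866 genes were lower with a pseudocount of 1. When a pair was left out, 183 to 456 genes were higher and 412 to 563 lower, 183 of them without CD140a(+)/Sca1(+). The cause was not tested. Without the replicate block (population) 337 genes were higher and 485 lower, Wisp1 had an adjusted p of 0.0818 in limma, and no CCN gene changed its call. The labels give no replicate numbers, and populations pair the libraries by design.

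Between populations, Ctgf in CD140a(-)/Sca1(+) was -0.089 without the injured CD140a(+)/Sca1(-) library (an alternative chosen after seeing the data) and -0.42 within control libraries, and Wisp1 there was -0.11 within injured libraries. In CD140a(+)/Sca1(-), Wisp1 was -0.13 with upper quartile scaling, and Cyr61 passed the rule with that scaling, at -1.88 (adjusted p = 0.473 in limma). Nov there was 0.70 within controls, which is the same comparison as leaving that library out. In CD140a(+)/Sca1(+), Wisp2 was -0.028 with quantile normalization and -0.0049 without that library, Cyr61 was -0.54 within controls and Nov 1.32 within injured libraries. Over the alternatives, the calls of CD140a(-)/Sca1(+), 206 higher and 44 lower, ran from 43 to 348 and from 8 to 132. Those of CD140a(+)/Sca1(-), 102 and 579, ran from 21 to 237 and from 93 to 1185, and those of CD140a(+)/Sca1(+), 205 and 73, from 54 to 334 and from 21 to 123. Wisp2 had 26 reads or fewer in every library.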
